A study of Mus musculus with 13 samples.

Results

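The small leucine-rich proteoglycans are secreted matrix proteins with a core of leucine-rich repeats, most of which carry glycosaminoglycan chains. Members were chosen by gene symbol, and all 10 of the listed genes (Bgn, Dcn, Lum, Fmod, Ogn, Aspn, Omd, Kera, Prelp and Podn) were found among the 23211 genes of the count matrix. RNA had been measured in 13 libraries from mice with tibia implants, 7 of them of fibrous tissue (source PMMA in the labels) and 6 of bone (source Pressfit). By the titles of the series and its samples, all libraries held lineage-negative cells positive for LEPR, the leptin receptor, a surface marker of marrow stromal cells, after sorting by flow cytometry. Strain, age, sex and the time after implantation are not given in the labels, which also do not say whether the libraries came from separate animals, so p-values measure only the spread between libraries, which may be technical.

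Library names fell into 2 series, L002 (fibrous 1 to 5 and bone 1 to 4) and XY.9274 (fibrous 6 and 7, bone 5 and 6), and within L002 the names of fibrous 5, bone 3 and bone 4 held the token Lin. Totals were 18056208 to 44302166 counts in the fibrous and 16162321 to 43217004 counts in the bone libraries. Lepr, the gene of the sorted receptor, was under 5 normalised read counts per 1e6 (CPM, scaled by edgeR's TMM factors) in fibrous 1 and 5 and in bone 3, 4 and 5, against the label of those libraries. The remaining 8 held 46.7 to 804 CPM. Transcripts of red cell precursors were present in every library, with 8 erythroid genes at 1.05% to 21.2% of the counts in fibrous and 0.201% to 36.6% in bone libraries.

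In the matrix, these proteoglycans bind collagen fibrils through the concave face of their repeats and set how fibrils grow and pack. Biglycan (Bgn) and decorin (Dcn) carry chondroitin or dermatan sulfate chains, and asporin (Aspn) is their close relative with a stretch of aspartate residues. Lumican (Lum), fibromodulin (Fmod), keratocan (Kera) and osteomodulin (Omd, also called osteoadherin) are keratan sulfate proteoglycans, and Prelp has a basic tail that binds heparan sulfate. Osteoglycin (Ogn, also called mimecan) and podocan (Podn) belong to further classes of the family. In the skeleton, fibromodulin and Prelp are known from cartilage and tendon, biglycan and osteomodulin from bone, and decorin and lumican from fibrous connective tissue at large.

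Most members lie in clusters of neighbours (build GRCm38, GENCODE release M21). Aspn (chromosome 13, 49544443 to 49567565), Omd (49582462 to 49592822) and Ogn (49608046 to 49624501) follow one another on the plus strand, 14.9 kb and 15.2 kb apart. Dcn (chromosome 10, 97479609 to 97518143), Lum (97565128 to 97572703) and Kera (97606879 to 97613692) do the same, 47.0 kb and 34.2 kb apart. On chromosome 1, Prelp (133910304 to 133921414, minus strand) and Fmod (134037254 to 134048277, plus strand) are 115.8 kb apart, and no other protein-coding gene lies in any of these gaps. Bgn is on chromosome X (73483602 to 73495933, plus strand) and Podn on chromosome 4 (108014791 to 108096445, minus strand).

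The start regions of 4 members are shown because Ogn, Aspn, Omd and Bgn had the largest fibrous over bone fold changes by edgeR of the 8 members tested. None of these fold changes passed the threshold, and the order depended on the tool. Bgn also had the largest difference of the Lin-named libraries. Sequences are from RefSeq (build GRCm38.p6, all on the plus strand, 5′ to 3′), from 250 bases before to 50 bases after the annotated start: chrX:73483351-73483650 for Bgn, chr13:49607765-49608064 for Ogn, chr13:49544193-49544492 for Aspn and chr13:49582212-49582511 for Omd. Capitals mark matches, searched on both strands, to any of 4 short promoter motifs. The TATA box was searched as the letters TATAAA. The CCAAT box is named by its own letters. The GC box was searched as the word GGGCGG. For the binding site of AP-1, a factor of growth and stress signals, the pattern was TGANTCA.
Bgn: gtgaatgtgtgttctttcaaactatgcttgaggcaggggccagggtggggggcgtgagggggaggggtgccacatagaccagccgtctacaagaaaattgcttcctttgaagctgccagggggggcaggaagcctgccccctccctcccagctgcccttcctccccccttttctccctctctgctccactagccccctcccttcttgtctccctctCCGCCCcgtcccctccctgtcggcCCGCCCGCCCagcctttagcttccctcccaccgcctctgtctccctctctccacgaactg
Ogn: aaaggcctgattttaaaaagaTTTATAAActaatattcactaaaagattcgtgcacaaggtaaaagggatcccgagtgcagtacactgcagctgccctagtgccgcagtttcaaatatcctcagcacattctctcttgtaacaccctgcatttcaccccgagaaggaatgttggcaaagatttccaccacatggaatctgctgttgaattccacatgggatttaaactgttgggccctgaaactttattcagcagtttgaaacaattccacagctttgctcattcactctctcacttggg
Aspn: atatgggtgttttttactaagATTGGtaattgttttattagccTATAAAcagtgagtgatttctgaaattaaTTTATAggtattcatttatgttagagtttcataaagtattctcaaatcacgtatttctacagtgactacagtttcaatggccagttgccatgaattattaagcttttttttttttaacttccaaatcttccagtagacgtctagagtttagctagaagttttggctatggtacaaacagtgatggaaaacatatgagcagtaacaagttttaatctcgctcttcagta
Omd: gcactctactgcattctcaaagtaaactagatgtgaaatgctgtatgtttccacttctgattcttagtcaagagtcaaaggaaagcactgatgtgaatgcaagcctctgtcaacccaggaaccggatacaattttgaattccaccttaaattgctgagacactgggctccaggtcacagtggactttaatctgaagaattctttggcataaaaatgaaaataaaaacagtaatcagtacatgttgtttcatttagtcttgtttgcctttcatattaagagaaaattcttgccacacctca
The Bgn window held 3 GC-box matches, at 34, 10 and 6 bases before the start, of which the last 2 overlap in their letters, and its G and C content was 63.7%. The Ogn window (42.3% G and C) held 2 TATA-box matches that overlap, 229 and 227 bases before the start. In the Aspn window (31.0% G and C) there were 2 TATA-box matches, 207 and 178 bases before the start, and 1 CCAAT match, 229 bases before it. The Omd window (37.7% G and C) held no match. Over all 32851 windows in the table, a GC box occurred in 35.7%, a CCAAT box in 37.4%, a TATA box in 13.6% and the AP-1 motif in 7.81%. Of the 8 members with a window, none held the AP-1 motif, Kera held 3 CCAAT matches, and Prelp and Fmod held 1 each. Dcn and Lum had no window in the table. These are matches of letters only.

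Together the members took 0.0972% to 0.891% of all counts in the fibrous libraries (median 0.306%) and 0.00900% to 0.872% in the bone libraries (median 0.0660%). Fibrous 2 and bone 1 held the most in their groups, and fibrous 5 and bone 4, both Lin-named, the least. The groups overlapped, since bone 1 and bone 2 (0.512%) lay above the fibrous median. In bulk RNA, fewer cells of a type and less RNA per cell cannot be told apart.

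**Figure D1:**
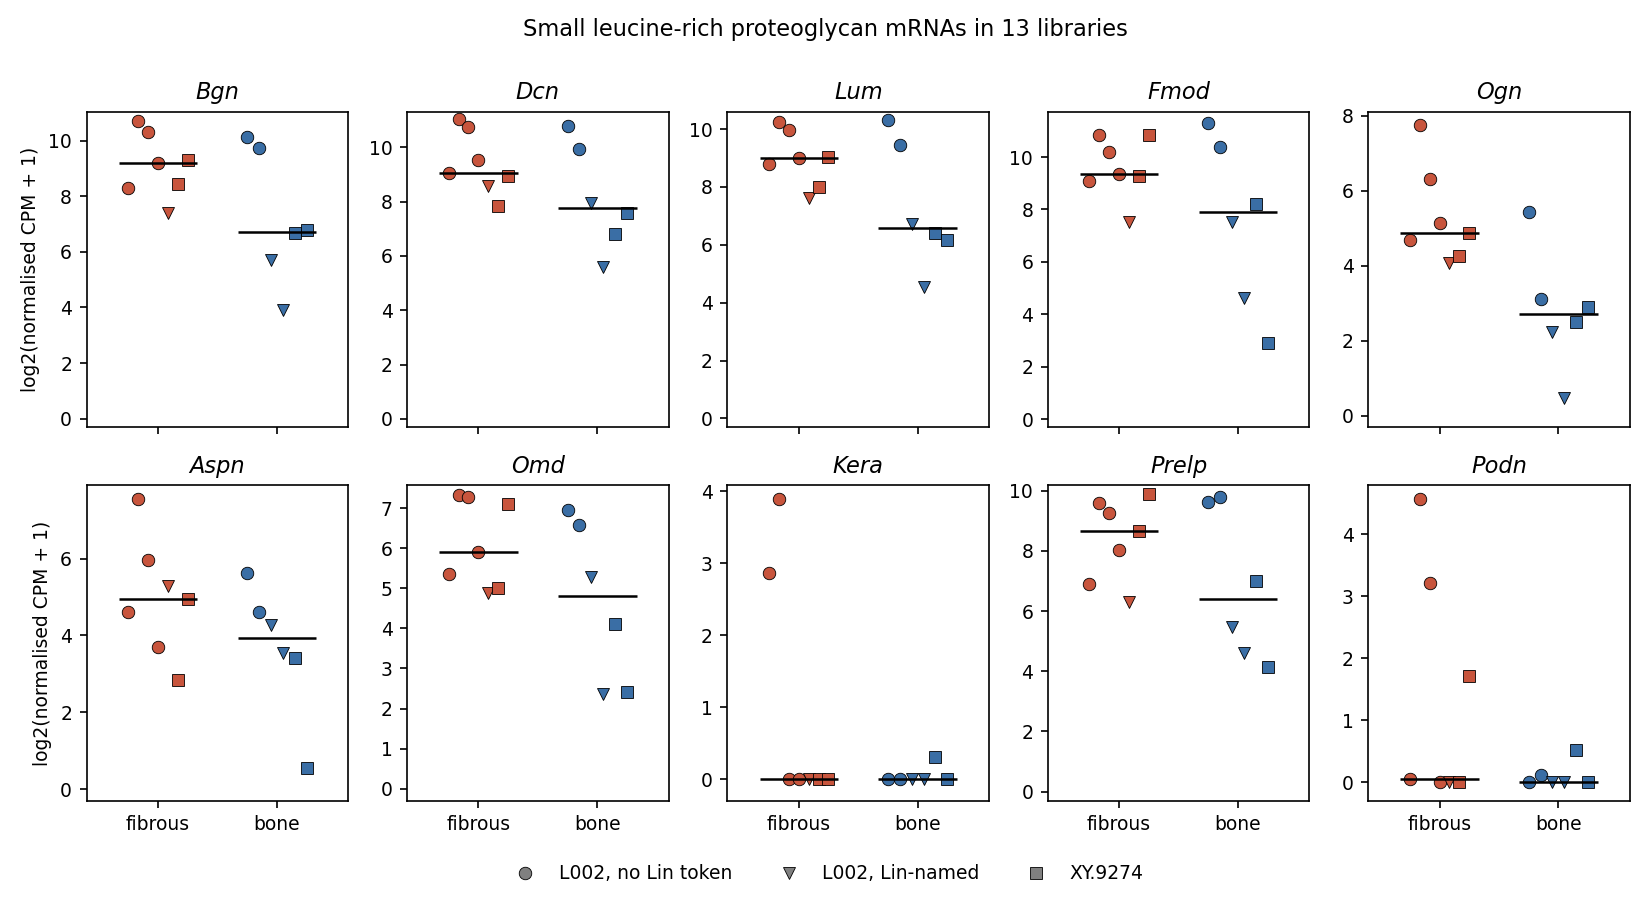
Normalised expression, log2(CPM + 1), of the 10 proteoglycan genes in 7 fibrous and 6 bone libraries; each point is a library, its shape gives the name series and the Lin token, and the line is the group median. The fibrous median lies above the bone median for the 8 genes detected throughout, the points of both groups overlap in every panel, and Kera and Podn are at 0 in most libraries.

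Biglycan and decorin were detected in every library. Bgn ran from 166 through a median of 590 to 1669 CPM in fibrous libraries, and from 13.9 through 105 to 1125 CPM in bone libraries. Fibrous 2 and 3 lay above every bone library and 4 bone libraries (bone 3 to 6) below every fibrous one, while bone 1 and 2 lay among the fibrous values. Dcn had 229, 529.6 and 2108 CPM as its lowest, median and highest fibrous value, against 47.3, 219 and 1755 CPM in bone. All 7 fibrous libraries were above the bone median of each gene. The ratio of Bgn to Dcn, in counts per kilobase (kb) of exon, was 0.418 to 1.46 in fibrous and 0.195 to 0.862 in bone libraries. Its 3 lowest values were those of the Lin-named libraries (0.418 in fibrous 5, 0.195 in bone 3 and 0.282 in bone 4), and it exceeded 1 in fibrous 6 and 7 alone.

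Asporin varied more. Its CPM in fibrous 1 to 7 was 23.3, 188, 61.7, 11.9, 38.2, 6.15 and 29.9, and in bone 1 to 6 it was 48.4, 23.6, 18.2, 10.6, 9.73 and 0.459. Fibrous 2 stood far above the rest and bone 6, with 15 counts, far below, and the 5 fibrous libraries other than fibrous 2 and 3 lay within the bone range.

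Lumican and fibromodulin of the keratan sulfate class had the highest median levels per kb of exon, 209 and 198 CPM per kb in fibrous libraries and 38.7 and 72.6 CPM per kb in bone libraries. Lum ran from 193 through 512 to 1213 CPM in fibrous libraries and from 22.5 through 94.6 to 1276 CPM in bone libraries, with its highest value in bone 1. Fmod ran from 183 through 654 to 1842 CPM in fibrous libraries and from 6.58 through 240.04 to 2549 CPM in bone libraries. Bone 1 was thus the highest library for both genes, and bone 6 was by far the lowest for Fmod but not for Lum.

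Prelp had 77.5, 402 and 951 CPM as lowest, median and highest fibrous value and 16.5, 84.3 and 885 CPM in bone. Omd ran from 28.4 through 58.7 to 160 CPM in fibrous libraries and from 4.11 through 27.03 to 123 CPM in bone libraries. For Prelp, bone 1 and 2 lay above every fibrous library except fibrous 7, while for Omd fibrous 2, 3 and 7 lay above every bone library. Kera, best known from the cornea, had 161 counts in fibrous 1, 447 in fibrous 2 and 11 in bone 5, and 0 in the other 10 libraries. Those counts equal 6.29, 13.9 and 0.236 CPM.

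Osteoglycin had 5 of the 6 bone libraries below every fibrous library, where for the other members this number was 0 to 4. How many of all genes were split like Ogn was not counted. Ogn stood at 24.8, 214, 79.0, 34.2, 15.9, 18.2 and 28.3 CPM in fibrous 1 to 7, against 41.9, 7.67, 3.74, 0.401, 4.65 and 6.46 CPM in bone 1 to 6. The exception was bone 1, which lay above 5 of the 7 fibrous libraries. In the bone group Ogn rested on few reads, with 4 counts in bone 4 and 58 in bone 3. Podn, the distant relative, was found at 1, 733, 225 and 121 counts in fibrous 1, 2, 3 and 7 and at 2 and 20 counts in bone 2 and 5, and was at 0 elsewhere.

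The design text names fibrous against bone as the comparison, which asks how the sorted cells differ between both kinds of peri-implant tissue. In a fit of all genes (edgeR quasi-likelihood F test, name series as a term, Benjamini-Hochberg adjustment), Kera and Podn did not pass the filter on low counts, and all 8 other members had a positive log2 fold change of fibrous over bone. Their median was 1.03, beside 0.03 over all 13294 genes tested, of which 51.9% were above 0. None of the 8 passed an adjusted p of 0.05, nor did any gene of the fit (0% called). At an unadjusted p under 0.05 there was 1 member, Ogn, among 636 genes (4.78%). Limma called 0 genes too, with 1176 at an unadjusted p under 0.05, while DESeq2 called 169 (1.3%) and 0 members. Members under an unadjusted p of 0.05 were Bgn (0.0249), Lum (0.0242) and Fmod (0.0354) by limma, where Ogn had 0.0676, and Ogn (0.00331) and Aspn (0.0440) by DESeq2. By DESeq2, 1285 of the 13294 genes fitted were under that level. With limma, which weighted the libraries by quality, the members' median was 1.98 and that of all genes 0.17.

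Ogn had the largest difference, with a log2 fold change of 2.33 (SE 0.87, n = 7 and 6; edgeR unadjusted p = 0.0199, adjusted p = 0.873), and by DESeq2 its adjusted p was 0.140. The other members of the chromosome 13 cluster came next, Aspn at 1.5 (SE 0.76) and Omd at 1.17 (SE 0.80). Bgn was at 1.12 (SE 0.87), Lum at 0.93 (SE 0.78) and Dcn at 0.75 (SE 0.67). The smallest values belonged to the chromosome 1 neighbours, Prelp at 0.68 (SE 1.05) and Fmod at 0.64 (SE 1.11). Adjusted p-values of these 7 lay between 0.873 and 0.934 by edgeR. The order depended on the tool, since by limma Ogn (3.18) and Fmod (2.57) were the largest, Prelp (2.08) lay above Omd (1.55), and Aspn (1.16) was the smallest.

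**Figure D2:**
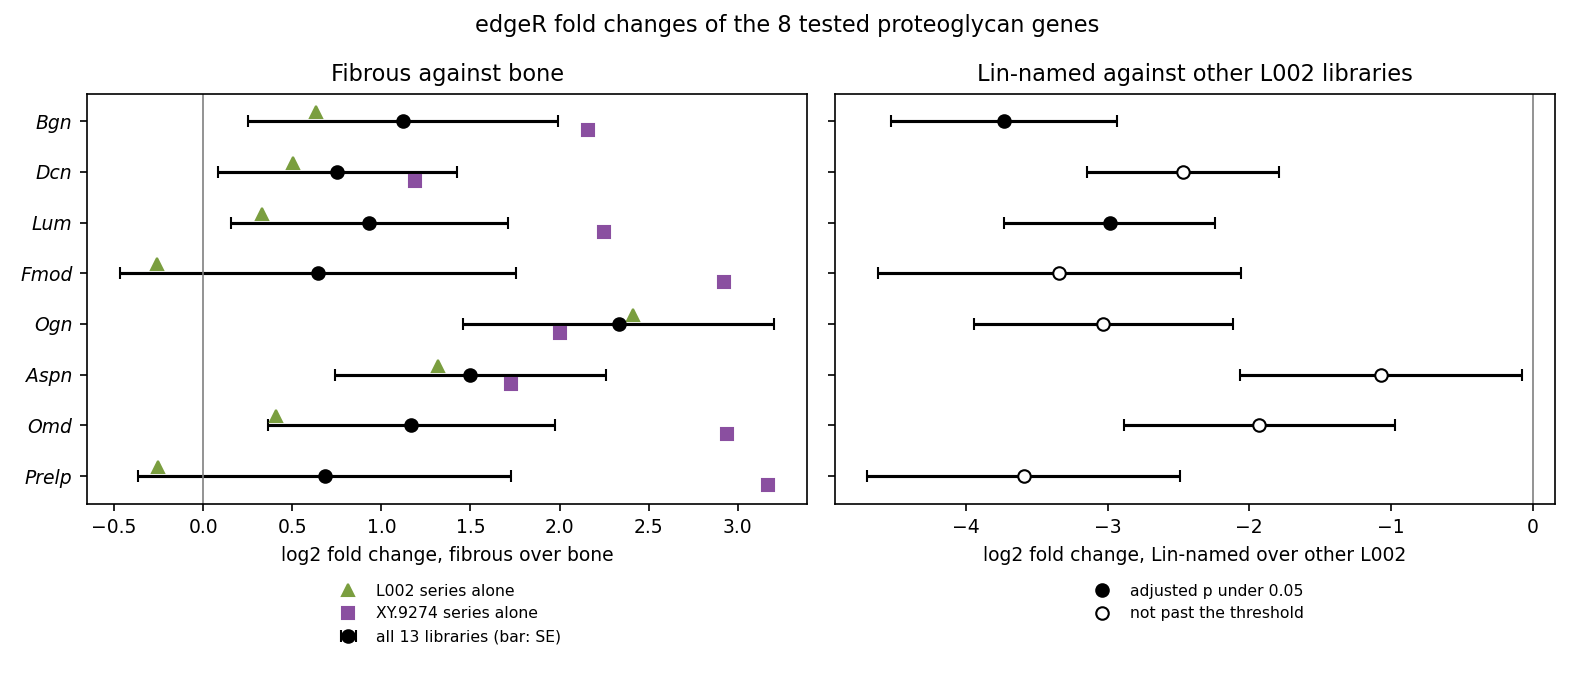
Log2 fold changes of the 8 tested genes by edgeR: left, fibrous over bone in all 13 libraries (circles, with SE) and within each name series (triangles, L002; squares, XY.9274); right, Lin-named over other L002 libraries (filled, adjusted p under 0.05). On the left Fmod and Prelp lie below 0 in L002 and near 3 in XY.9274, and Ogn is at 2.41 and 2.00; on the right all 8 values are negative, and Bgn and Lum are filled.

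The fold changes estimated within each name series differed for several members, but no member's interaction of series and group passed the threshold. In L002 alone Fmod and Prelp were slightly lower in the fibrous libraries (log2 fold change -0.26 for each), where in XY.9274 alone, with 2 libraries a group, they were at 2.92 and 3.17. Omd had the same order with 0.41 in L002 and 2.94 in XY.9274, as did Lum with 0.33 and 2.25. Ogn was at 2.41 in L002 and 2.00 in XY.9274. In XY.9274, Fmod was at 611 and 1842 CPM in fibrous 6 and 7, against 298 in bone 5 and 6.58 in bone 6, so that the bone libraries were far apart. For Lum they were not, with 253 and 523 CPM in fibrous 6 and 7, against 84.4 in bone 5 and 71.2 in bone 6. The interaction of series and group was past the threshold for 0 of 13294 genes by edgeR (0%; 292 at an unadjusted p under 0.05), for 0 by limma and for 25 by DESeq2 (0.192%), none of them a member. The interaction was 3.49 (SE 1.97) for Prelp and 3.24 (SE 2.17) for Fmod on the log2 scale.

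Lists of cell type markers were read beside the members, and 0 of their genes were called by edgeR in fibrous against bone. The 8 neutrophil genes all had negative fold changes of fibrous over bone (0 called by DESeq2 too), with a sum of normalised values of 649 to 22659 CPM in fibrous against 1487 to 90833 CPM in bone libraries. Of the 7 B and plasma cell genes 1 was above 0 (median -1.24, 1 called lower by DESeq2), and their sums were 60.5 to 1751 CPM in fibrous and 68.3 to 18058 CPM in bone. All 9 marrow stromal genes had positive fold changes (0 called by edgeR, 1 by DESeq2), with sums of 27.0 to 11385 CPM in fibrous and 15.3 to 1527 CPM in bone. The 7 osteoblast and osteocyte genes measured were also all above 0 (median 1.07, 1 called higher by DESeq2), at 937 to 6736 CPM in fibrous and 230 to 5370 CPM in bone. In fibrous libraries the 7 chondrocyte genes summed to 1567 to 45197 CPM, and in bone libraries to 278 to 35421 CPM. The 5 genes listed for tendon summed to 35.2 to 2088 CPM in the fibrous group, against 3.91 to 1065 CPM in the bone group. Both of these maxima were mostly 1 collagen gene, Col11a2, with 2070 CPM in fibrous 7 and 959 CPM in bone 1. In bone 3 it held 18.4 of 38.9 CPM. Scx, Tnmd and Mkx did not exceed 25.0 CPM in any library, so the tendon sum is no measure of tendon cells. All 6 macrophage genes tested had negative fold changes (median -0.94, 0 called by DESeq2), with sums of 5.80 to 85.3 CPM in fibrous and 4.02 to 345 CPM in bone. Of the 4 endothelial genes measured, Cdh5 was at 0 in 10 libraries and Emcn in 8. Pecam1, the 1 that passed the filter, was at -2.78 (SE 1.29; edgeR unadjusted p = 0.0516). It reached 34.1 CPM in fibrous 6 and 43.1 CPM in bone 5. The groups overlapped in the sum of every list, and the part of these cell types in the proteoglycan values was not tested. Leaving out the 5 libraries low in Lepr left Ogn at 2.05, and leaving out the 3 Lin-named libraries left it at 1.93, with 0 genes called by edgeR either way. The members' median was 0.87 in both of these fits, with 9 members tested and all above 0, beside 1.03 in the main fit. That main fit had no term for the Lin token, which is in the names of fibrous 5, bone 3 and bone 4. With such a term the median was 0.92, and it was 0.46 in L002 alone and 2.25 in XY.9274 alone.

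Which proteoglycan dominated varied between libraries of the same tissue. Per kb of exon, Bgn, Dcn, Lum, Fmod and Prelp together made up 87.6% to 95.5% of the family in fibrous and 83.6% to 95.7% in bone libraries. Fmod averaged 28.8% ± 7.94 of the family in fibrous and 26.8% ± 14.7 in bone libraries (SD, n = 7 and 6), and Lum 24.8% ± 5.42 in fibrous and 23.6% ± 5.07 in bone. Dcn held 15.1% ± 5.99 in fibrous and 19.2% ± 9.48 in bone, Prelp 12.2% ± 6.10 in fibrous and 12.3% ± 5.84 in bone, and Bgn 10.99% ± 2.15 in fibrous and 9.60% ± 5.47 in bone. For each of these genes the means differed by less than the SD within either group. Omd averaged 3.74% ± 0.759 in fibrous and 4.19% ± 2.51 in bone, Aspn 2.16% ± 1.91 in fibrous and 3.25% ± 4.22 in bone, and Ogn 1.97% ± 0.959 in fibrous and 0.973% ± 0.922 in bone. Lum or Fmod ranked first in all libraries except bone 6, where Dcn did. These ranks depend on the length used. The exons of all Bgn transcripts cover 6099 bases and its longest transcript 2666, and with the longest transcript as length Bgn came first in fibrous 2, 3 and 4 and in bone 6, and Dcn in fibrous 5 and bone 4. In plain counts Dcn came first in 7 of the 13 libraries (fibrous 2 to 5 and bone 3, 4 and 6).

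**Figure D3:**
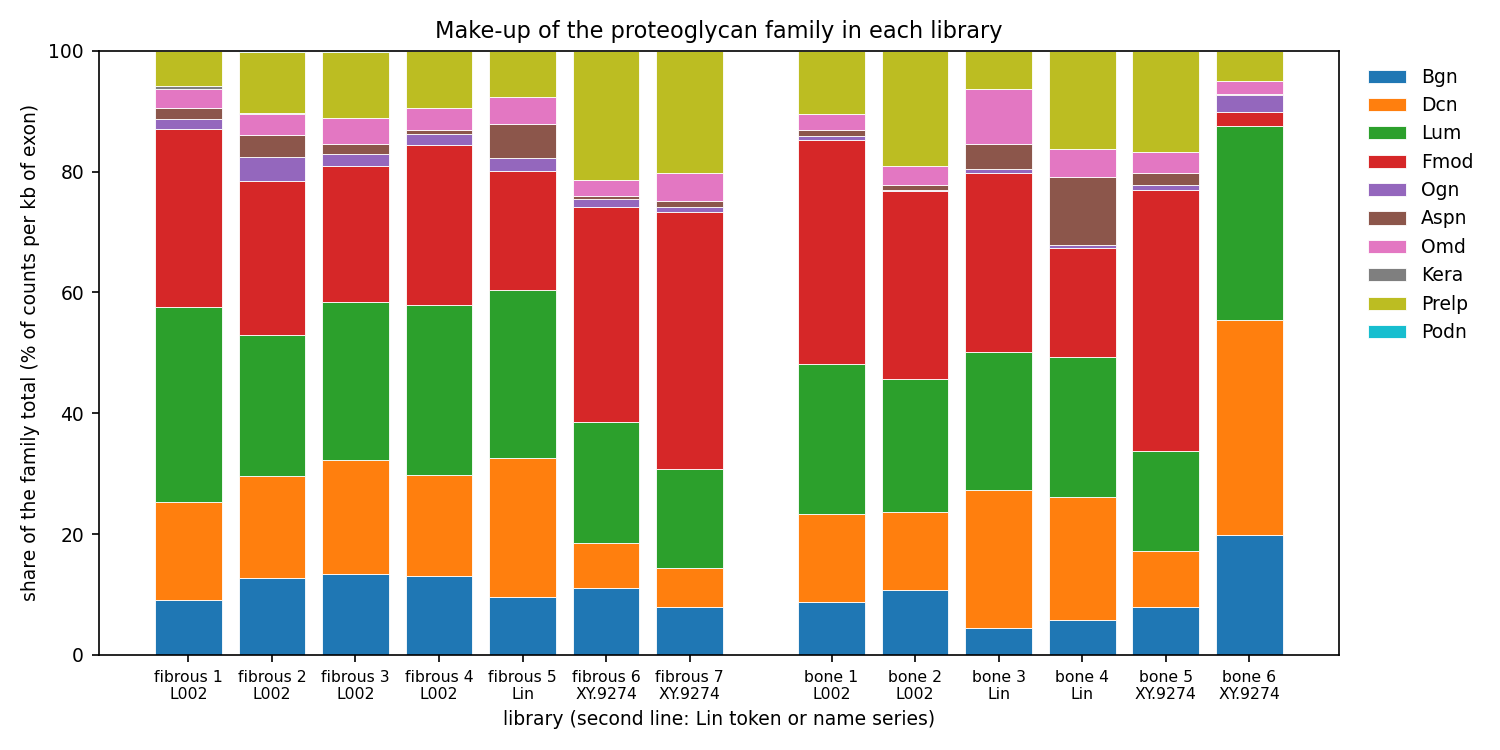
Share of each proteoglycan gene in the family total, in percent of counts per kb of exon, for 7 fibrous and 6 bone libraries (the second line of each label gives the Lin token or the name series). Fmod and Prelp fill most of fibrous 6, fibrous 7 and bone 5 and little of bone 6, and Aspn is widest in fibrous 5 and bone 4.

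Fibromodulin and Prelp set the libraries apart. Their joint share of the family was 27.1% to 62.8% in fibrous libraries (median 35.6%) and 7.24% to 59.9% in bone libraries (median 41.6%). It was highest in fibrous 7 (62.8%), bone 5 (59.9%) and fibrous 6 (57.0%), all of the XY.9274 series, and lowest in bone 6 (7.24%) of the same series. The ratio of Col2a1, the main collagen of cartilage, to Col1a1, the main collagen of bone and fibrous tissue, was 1.93 in fibrous 7, 3.27 in bone 5 and 0.772 in fibrous 6, per kb, and 0.0179 in bone 6. Bone 2 and bone 1, next in their Fmod and Prelp share (50.1% and 47.4%), had ratios of 1.02 and 1.04. In bone 6 Dcn (35.7%) and Lum (32.2%) filled most of the family, and the summed chondrocyte list was at 353 CPM. The share did not follow these measures in every library. Bone 3 had a collagen ratio of 0.788, close to that of fibrous 6, with a share of 35.9%. Bone 4 had a lower chondrocyte sum than bone 6 (278 CPM) and a Fmod and Prelp share of 34.3%. That sum is a level and not a share, and the whole family took 0.00900% of the counts in bone 4. The collagen ratio of bone 4 was 0.373, beside 0.353 in fibrous 5 and 0.524 in fibrous 1, whose shares were 27.1% and 35.2%. The part of cartilage cells in these shares was not tested.

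**Figure D4:**
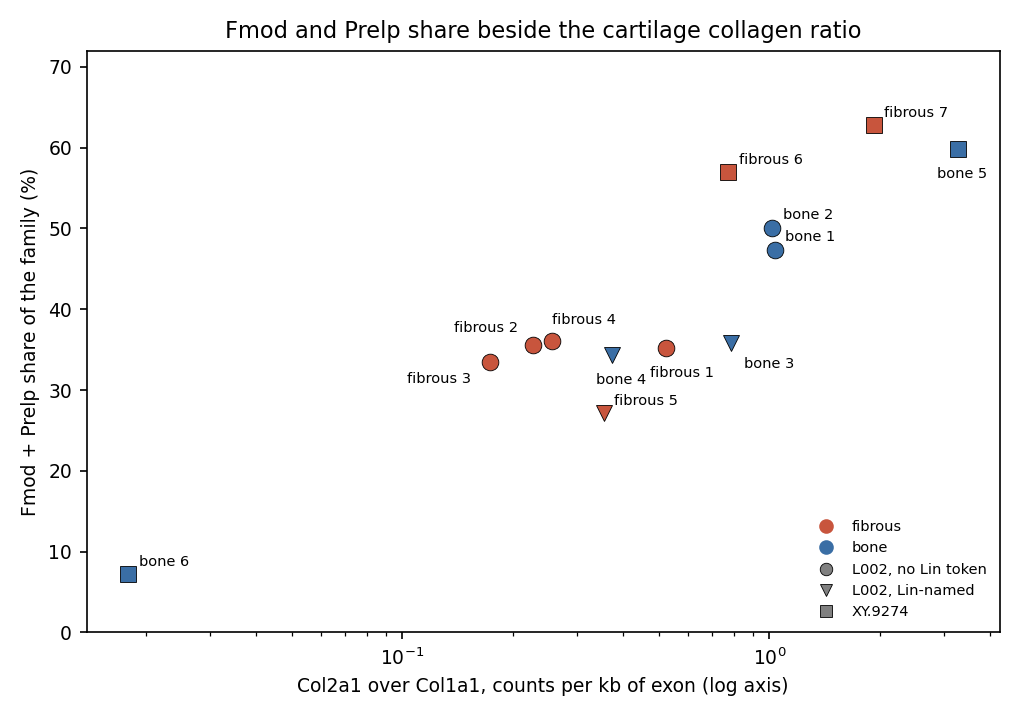
Joint share of Fmod and Prelp in the family (vertical axis, percent of counts per kb) beside the ratio of Col2a1 to Col1a1 (horizontal log axis, per kb) in 13 libraries, coloured by tissue and shaped by name. Bone 6 stands alone at the lower left, and fibrous 7 and bone 5 at the upper right, while 7 libraries lie between 27.1% and 36.1%.

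Ratios between members varied from library to library. Fmod over Lum, which lie on different chromosomes, was 0.701 to 2.61 per kb in fibrous libraries and 0.0684 to 2.61 in bone libraries, with both highest values in XY.9274 (fibrous 7 and bone 5). Prelp over Fmod was 0.197 to 0.601 in fibrous and 0.216 to 2.29 in bone libraries, the top value being that of bone 6, where 538 counts of Prelp stood beside 215 of Fmod. Dcn over Lum, neighbours on chromosome 10, kept to a narrower range, 0.379 to 0.822 in fibrous and 0.558 to 1.11 in bone libraries. Omd over Aspn of the chromosome 13 cluster was 0.778 to 5.27 in fibrous and 0.405 (bone 4) to 9.91 (bone 6) in bone libraries. Ogn over Aspn of the same cluster was 0.383 to 2.72 in fibrous and 0.0346 to 12.9 in bone libraries. Its extremes were bone 4, with 4 counts of Ogn, and bone 6, with 15 counts of Aspn. The 3 genes of the chromosome 13 cluster together made up 4.52% to 12.4% of the family in fibrous and 4.28% to 16.4% in bone libraries, and the 3 highest shares were those of the Lin-named libraries (12.4% in fibrous 5, 13.9% in bone 3 and 16.4% in bone 4). Cenpp, a minus-strand gene counted with 547 to 1320 reads a library, spans this cluster, but it shares 7 exon bases with Aspn and 0 with Ogn and Omd. Prelp shares 350 exon bases with Gm15851 on the opposite strand, which had 0 to 8 counts a library.

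Across the 13 libraries the 8 tested members ranked the libraries in a similar order. Spearman's rho of log2 CPM ran from 0.582 (Aspn and Prelp) to 0.962 (Fmod and Prelp) over the 28 pairs, with a median of 0.852, as a description over libraries that share depth, name series and cell content. The genes ranked most like each member were the 3 highest among the 13294 tested, with all members left out of the search. The median rho over all searched genes lay between -0.033 (Aspn) and 0.061 (Prelp). Nearest to Fmod were Comp (rho 0.989), the cartilage and tendon matrix protein, Col6a1 and Angptl2, and nearest to Prelp were Hapln1 (0.978), a link protein of cartilage aggrecan, Comp and Col9a1, a cartilage collagen. Bgn was most like Fcgrt, Rcn3 and Fkbp10 (0.984 to 0.989), of which the last is a collagen chaperone of the endoplasmic reticulum. Lum was most like Anxa8, Cavin3 and P4ha2, a collagen prolyl hydroxylase, and Dcn like Fkbp7, Gpx3 and Nupr1. Ogn stood nearest to Mmp2 (0.989), Grb14 and Mmp14 (0.978), of which Mmp2 is a gelatinase and Mmp14 the membrane proteinase that activates it. Omd was nearest to Crtap (0.973), part of the collagen prolyl 3-hydroxylase complex, Maged2 and Rhbdf1, and Aspn to Itgbl1 (0.949), Fxyd6 and Ly6c1.

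The Lin-named libraries held less of most proteoglycans than the other L002 libraries. Bgn was at 166, 50.8 and 13.9 CPM in fibrous 5, bone 3 and bone 4, against a range of 312 to 1669 CPM (median 987) in the 6 others. Lum was at 193, 105 and 22.5 CPM in the same Lin-named libraries, against 443 to 1276 CPM (median 843) in the others. For neither gene did the Lin-named and the other libraries overlap. Bgn fell by 3.73 (SE 0.80, n = 3 and 6; adjusted p = 0.0293) and Lum fell by 2.99 on the log2 scale (SE 0.75; adjusted p = 0.0432), by edgeR in a fit of all 13 libraries with tissue as a term. These were 2 of the 8 members tested, where 5.76% of all genes passed, 4.1% lower and 1.66% higher in the Lin-named libraries.

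The 6 members that did not pass by edgeR also had negative values. Prelp was at -3.59 (SE 1.10; adjusted p = 0.0724), Fmod at -3.34 (SE 1.28; adjusted p = 0.129), Ogn at -3.03 (SE 0.91; adjusted p = 0.0687) and Dcn at -2.47 (SE 0.68; adjusted p = 0.0546). Prelp, Fmod, Dcn and Omd were lower in each Lin-named library than in any other L002 library. How many of all genes were set apart like these and like Bgn and Lum was not counted, so this is no trait particular to the members. By edgeR, 3470 of the 13294 genes were at an unadjusted p under 0.05 in this comparison. Ogn overlapped, with 15.9 CPM in the Lin-named fibrous 5 against 7.67 CPM in bone 2. Omd was at -1.93 (adjusted p = 0.224) and Aspn at -1.07 (adjusted p = 0.524), and Aspn overlapped too, with 38.2 CPM in fibrous 5 against a median of 36.0 in the other L002 libraries. The median of the 8 was -3.01, beside -0.22 over all genes. DESeq2 called 6 members lower, all but Omd and Aspn, among 3233 genes (16.6% of all genes were called lower), and limma called Bgn and Lum among 743 genes (1.81% lower).

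These calls depended on which libraries were fitted, while the values with 1 library left out stayed between -4.36 and -3.26 for Bgn and between -3.32 and -2.52 for Lum. By edgeR 0 members passed when bone 1, bone 3, bone 4 or fibrous 6 was left out, Bgn alone passed without bone 2, fibrous 2, fibrous 3 or fibrous 5, and 4 members passed without bone 6 and 5 without fibrous 1. Fibrous 6 and bone 6 are of XY.9274 and enter this comparison only through the tissue term and the shared spread. The Lin-named libraries differed in cell content too. Erythroid genes held 21.2% to 36.6% of their counts, against 3.06% to 13.03% in the other L002 libraries, with 0 of 8 genes called. Of 7 B and plasma cell genes, Cd79a (2.81) and Cd79b (3.29) were called higher by edgeR and 3 by DESeq2 (median 2.81), and the list summed to 622 to 1716 CPM in the Lin-named and 60.5 to 1534 CPM in the other L002 libraries. Called lower by edgeR were 4 of 9 marrow stromal, 3 of 7 osteoblast and osteocyte and 1 of 7 chondrocyte genes. The marrow stromal list summed to 15.3 to 27.0 CPM in the Lin-named and 54.3 to 11385 CPM in the other L002 libraries. The osteoblast and osteocyte list summed to 230 to 937 CPM in the Lin-named and 2964 to 6736 CPM in the others, and the chondrocyte list to 278 to 1567 CPM in the Lin-named and 6803 to 35421 CPM in the others. The part of these shifts in the proteoglycan difference was not tested.

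**Figure D5:**
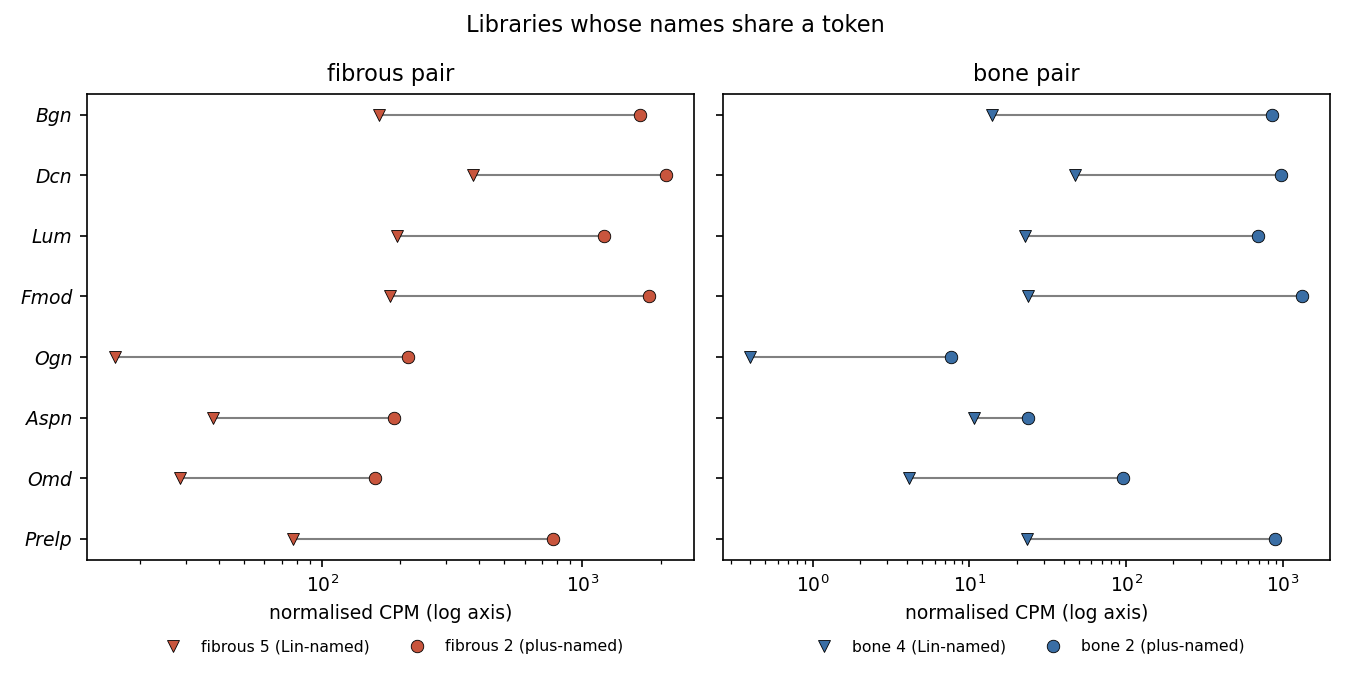
Normalised CPM (log axis) of 8 proteoglycan genes in 2 pairs of L002 libraries whose names share a token: the Lin-named library (triangle) and the plus-named library (circle) of a fibrous pair, left, and a bone pair, right. Every circle lies to the right of its triangle, and the gap is widest for Ogn in the fibrous pair and for Bgn in the bone pair.

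In L002, fibrous 5 and fibrous 2 share a name token, and so do bone 4 and bone 2, with the token Lin in the first name and plus in the second of each pair. The labels do not say whether such a pair came from the same animal. Dcn was at 379 CPM in fibrous 5 and 2108 in fibrous 2, and at 47.3 CPM in bone 4 and 966 in bone 2. Over the 8 members the plus-named library was 4.93 (Aspn) to 13.4 (Ogn) times the Lin-named one in the fibrous pair, and 2.22 (Aspn) to 60.9 (Bgn) times in the bone pair. Aspn thus had the smallest ratio in both pairs, which have no replicate of their own.

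Between the name series all 8 members tested had negative values. Their log2 fold changes of XY.9274 over L002 lay between -2.06 (Aspn, SE 0.89; adjusted p = 0.197) and -0.38 (Prelp, SE 1.14; adjusted p = 0.875), with a median of -1.43 beside 0.05 over all genes. None passed by edgeR, which called 287 genes (2.16%), or by limma (22.2%), and 2 were lower at an unadjusted p under 0.05 by edgeR (Aspn, and Dcn at -1.94; 9.26% of all genes). DESeq2 called Dcn and Aspn lower in XY.9274 among 1982 genes (7.41% of all genes were called lower). For Prelp the direction turned to 0.34 with limma, to 0.01 without bone 5 and to 0.22 without bone 6.

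The genes that build, bind, cut or sense these proteoglycans were read from the same fits. In fibrous against bone 0 of them passed by edgeR or DESeq2. Collagens and other partners showed 14 of 14 tested genes above 0 (median log2 fold change 0.94), among them Fbn1, the microfibril protein fibrillin, at 3.43 (SE 1.35; adjusted p = 0.873) and Col1a1 at 1.36 (SE 0.90; adjusted p = 0.873). Proteinases that cut the core proteins, with the procollagen proteinase enhancers Pcolce and Pcolce2, had 10 of 11 above 0 (median 1.10), with Bmp1, which trims the propeptide of biglycan, at 1.10 (SE 0.59) and Mmp14 at 1.34 (SE 0.80). Chondroitin and dermatan sulfate enzymes had 12 of 21 above 0 (median 0.21), from Chst3, a chondroitin sulfotransferase, at -2.52 (SE 1.66) to Chpf, a chondroitin polymerising factor, at 1.17 (SE 0.83) and Dsel, an epimerase relative, at 1.83 (SE 1.46). Keratan sulfate and tyrosine sulfation enzymes had 8 of 13 above 0 (median 0.09). Chst2, a sulfotransferase acting on N-acetylglucosamine, was at 3.19 (SE 1.28; unadjusted p = 0.0270 by edgeR), with 0.117 to 35.04 CPM in fibrous libraries, against 0 to 5.12 CPM in bone.

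Receptors that bind soluble proteoglycans had 4 of 8 above 0 (median -0.10), with Lrp1, an endocytic receptor of decorin, at 1.52 (SE 1.06) and Cd44 at -0.36 (SE 0.41). Other genes of the leucine-rich family had 4 of 6 above 0 (median 0.70), with Podnl1, the podocan-like gene, at 2.03 (SE 1.37) and Ecm2 at 1.82 (SE 1.37). Chad, the cartilage member chondroadherin, averaged 780 ± 493 CPM in fibrous libraries, against 1108 ± 1618 CPM in bone (SD, n = 7 and 6; log2 fold change -0.39, SE 1.22).

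In the Lin-named libraries several of these genes passed the edgeR test, all of them lower than in the other L002 libraries. Of 14 collagens and partners 6 fell (median -4.16), namely Col1a1 (-3.91, SE 0.85; adjusted p = 0.0301), Col1a2, Col5a2, Col6a1, Col6a2 and Fbn1 (-7.60, SE 1.64; adjusted p = 0.0298). Of the 11 proteinases and enhancers 5 fell (median -3.36), namely the proteinases Bmp1, Mmp2, Mmp13 and Mmp14 and the enhancer Pcolce. Among glycosaminoglycan enzymes Chpf fell (1 of 21, median -1.38), and among keratan sulfate and sulfation genes Chst1 and Papss1, which makes the sulfate donor, fell (2 of 13, median -0.50). Of the 8 receptors Lrp1 fell (median -1.62), and of the 6 other family members Podnl1 fell (median -3.63). The share called over all genes in this direction was 4.1%. These genes share the libraries, and so the cell content given above, with the proteoglycans.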

How the data were processed

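The values are whole-number counts per gene, which the authors deposited as a single table of 23211 mouse Ensembl gene IDs, all of which matched a symbol in GENCODE mouse release M21. Per the labels' protocols, polyA RNA was extracted with an RNeasy Plus Micro kit, made into Illumina TruSeq libraries and run on a NovaSeq instrument. The submitters' processing notes name edgeR and the builds mm10 and hg38. For the aligner, counter, annotation and use of strand, the tool is not given in the sources used here.

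Genes were fitted together with edgeR 4.0.16 in R 4.3.3 (TMM factors, filterByExpr on the groups, robust quasi-likelihood F test) with group and name series as terms, and for the Lin-named libraries with a name factor of 3 levels. P-values were adjusted by Benjamini-Hochberg over all 13294 genes tested, with a threshold of 0.05. SE is the fold change divided by the root of F. Alternatives were DESeq2 1.42.0 and voom with sample quality weights (limma 3.58.1). The edgeR, DESeq2 and limma fits were run on simulated counts for the tissue and Lin contrasts only, and no other step was. Levels per kb use the union of exons. Replicate numbers follow accession order. No pair of libraries of the same tissue agreed within sampling noise.

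The members, gene lists and tests were chosen with earlier results of these data known. Named were all 10 members, up to 3 genes of each list by smallest p in either contrast, and the 3 genes other than members nearest to each member by Spearman's rho (log2 CPM, prior count 2). Not all genes named by this rule are described. Chad in the tissue comparison, and Col1a1, Col6a1, Col6a2, Mmp2 and Mmp14 in the Lin comparison, were named after their values were seen. Nyx, Sost, Tek, Tll1, Tll2 and Wisp1 were listed but are not analysed here. At totals of 16162321 to 44302166 counts, counting error is small beside the spread between libraries for genes with many counts. It weighs more where counts are few, as with 4 for Ogn in bone 4 and 15 for Aspn in bone 6.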

Additional observations from a re-analysis of the deposited data

Results flagged for a closer look

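Within each tissue, 42 sets of values (each member's CPM or share of the family, plus the family total) were screened for a library far from the others, and 11 were marked. The rule's chance rate of 5% holds for normally spread values. These sets are skewed and partly at 0, so the number marked cannot be set against that rate. A set at 0 in all but 1 library, such as Kera in bone, is marked by construction. In the fibrous group fibrous 2 stood apart for Ogn (214 CPM, the next at 79.05), Aspn (188 CPM, the next at 61.7) and Podn (22.7 CPM, the next at 8.27). In the bone group bone 1 stood apart for Ogn (41.9 CPM, the next at 7.67).

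Bone 5 was the bone library furthest out for Kera (0.236 CPM, the others at 0) and for Podn (0.429 CPM, the next at 0.0829). In shares of the family these were 0.0496% for Kera and 0.0482% for Podn, on 11 and 20 counts. Bone 6 held the highest share of Ogn (2.78% of the family, the next at 0.870%), bone 4 that of Aspn (11.4%, the next at 4.13%) and bone 3 that of Omd (9.01%, the next at 4.61%).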

How the results depend on the processing

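Replicate numbers follow accession order and pair no libraries, so fibrous against bone has no paired fit. For the Lin token, a replicate block on the name token that fibrous 5 shares with fibrous 2 and bone 4 with bone 2, chosen after seeing the data, called 503 genes and 2 members, Bgn (-4.10, adjusted p = 0.0433) and Ogn (-3.42, adjusted p = 0.0370), with Lum at -3.21 (adjusted p = 0.0592). Whether these pairs deviate together was not tested, since fibrous 5 is the single Lin-named fibrous library. Over all alternatives 449 member fold changes kept their direction and side of the threshold, 12 passed and 14 no longer passed it, and 5 changed sign: Fmod and Prelp in fibrous against bone within L002 alone (-0.26 each), and Prelp in XY.9274 against L002 with limma (0.34), without bone 5 (0.01) and without bone 6 (0.22), in a range of -1.23 to 0.22 over libraries left out. Genes called by DESeq2 were 169 for fibrous against bone (0 by edgeR), 25 for the interaction (0), 3233 for Lin-named against other L002 (766) and 1982 for XY.9274 against L002 (287), where limma called 2946. Without a filter on low counts the Lin-named contrast called 373 genes and 1 member. Leaving out 1 library gave 31 to 1395 genes and 0 to 5 members for Lin-named against other L002, and 87 to 470 genes for XY.9274 against L002. DESeq2 called 6 members for the Lin token and 2 for the series. With the longest transcript as length, Bgn averaged 20.9% of the family in fibrous and 18.02% in bone libraries. Shares of plain counts were 17.8% for Bgn and 2.25% for Omd in fibrous, 23.3% for Dcn in fibrous and 28.8% in bone, and 16.2% for Lum in fibrous and 15.1% in bone. Without a filter Kera was at 6.56 (SE 4.42) and Podn at 6.13 (SE 2.77) in fibrous over bone, values that rest on few libraries above 0. Low counts limit what can be read from Kera and Podn, at 0 in most libraries, and from Ogn in bone 4, at 4 counts. Where no construction shows it, the cause was not tested.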
